A study of Bos taurus with 16 samples.

Results

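The transcripts of the methionine cycle were examined in RNA-Seq data from bovine expanded blastocysts. The set held 10 gene symbols, taken by name and not by any measured value: *MAT1A*, *MAT2A*, *MAT2B*, *AHCY*, *AHCYL1*, *AHCYL2*, *MTR*, *MTRR*, *BHMT* and *BHMT2*. Of these, 8 had a locus under their symbol among the 22358 loci of the count tables. A filter on low counts kept 6 of the 8, and 10519 loci in all. No locus carried the name *AHCY* or *BHMT2*, and these genes were not analysed here.

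The methionine cycle turns methionine into S-adenosylmethionine, the methyl donor of DNA, histone, RNA and small-molecule methyltransferases. Each methyl transfer leaves S-adenosylhomocysteine, an inhibitor of methyltransferases, which is hydrolysed to adenosine and homocysteine. Homocysteine is methylated back to methionine with a methyl group from folate or from betaine, or leaves the cycle through transsulfuration to cysteine. Preimplantation embryos lose and rebuild much of their DNA methylation, and draw on this donor to do so.

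Lactating Holstein cows received either a control diet or the same basal diet with rumen-protected methionine added (the methionine-rich treatment), from calving until embryos were collected. According to the study's methods, all cows were superovulated, artificially inseminated and flushed, and cows were then chosen on the number and quality of their embryos, balanced by sire. There were 4 dams per treatment. The labels name the tissue as IVF embryos, whereas those methods describe embryos flushed from inseminated cows. From each cow, called dam here, 2 pools of blastocysts were made, giving 16 pools written as C1.1 to C4.2 for control dams 1 to 4 and M5.1 to M8.2 for methionine-rich dams 5 to 8. No genetic modification is named for any group, and the sire and the sequencing lane of a pool were not given in the sources used here. The study lists more blastocysts in most methionine-rich pools than in any control pool. A covariate for the number of blastocysts is therefore partly confounded with the treatment. The listed RNA quality was also lower in some methionine-rich pools than in any control pool with a value.

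Pool C3.2 was left out, since few of its reads fell on annotated exons. It had 1745048 counts where the other 15 pools had between 5624126 and 7826542. Control totals (7 pools, median 6668507) and methionine-rich totals (8 pools, median 7298181.5) overlapped. A count of 3 in a pool corresponded to between 0.383 and 0.533 CPM (the count of a locus per 1000000 counts of its pool). Levels below are CPM without further normalization and without correction for transcript length, so they compare pools for 1 gene and not genes with each other. The filter on low counts kept loci whose CPM summed to at least 15 over the 15 pools. Summed over 6 listed trophectoderm markers, the pools held between 2821.4 and 9580.6 CPM, with *CDX2* at 0 in 3 of the 15 pools, and *SOX2* and *POU5F1* of the inner cell mass had counts in all 15. Of the 4 hypoblast markers *GATA6* had counts in all 15 pools, *GATA4* in 7 (at most 0.413 CPM), *FOXA2* in 5 (up to 40.5 CPM, in a methionine-rich pool) and *SOX17* in 0. Leukocyte markers summed to 1806.1 CPM in C2.1 and to at most 23.52 CPM in the other 14 pools, with the T cell marker *CD3E* at 0 in all 15. Cumulus and granulosa cell markers summed to at most 56.95 CPM, with *CYP19A1* alone at up to 56.95 CPM. The oviduct epithelium marker was at most at 3.03 CPM, and endometrial epithelium markers summed to at most 24.9 CPM, with *PGR* at up to 24.9 CPM. In pooled embryos, fewer cells of a type and less RNA per cell cannot be told apart.

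Differential expression between treatments was first tested across all 10519 loci with the exact test of edgeR on TMM-normalized counts, where a call needed a 2-fold or larger difference and a false discovery rate (FDR) under 0.10. None of the 6 methionine cycle genes was called, beside 0.276% of all loci called as higher in the methionine-rich treatment and 0.77% called as higher in the control. The FDR of the 6 genes lay between 0.816 and 1 by the exact test. At an unadjusted p under 0.05 the count was also 0 of 6 by the exact test, by the quasi-likelihood test of edgeR, by DESeq2 and by limma voom (the cow entering as a random effect), beside 898, 909, 780 and 421 of the 10519 loci. The quasi-likelihood test called 0% of loci at the same thresholds and voom called 0 loci, against 67 by DESeq2. Of the 6 genes, 3 had a log2 fold change (methionine-rich over control) above 0 and 3 below, with a median of -0.043 beside -0.049 over all loci. The median size of the log2 fold change was 0.454 in the 6 genes and 0.44 over all loci.

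The exact test of edgeR takes the pools of 1 dam as independent, as do its quasi-likelihood test and DESeq2 with their standard errors. Each gene was therefore also compared between dams, with the CPM of the pools of a dam averaged and the difference of the treatment means tested by an exact two-sided permutation test over the 70 assignments of 8 dams to 4 and 4, for which the smallest possible p is 0.0286. The interval given with each difference is the 97.1% interval found by inverting that test. In 0 of the 8 genes did every dam of 1 treatment exceed every dam of the other. Over all 10519 loci tested, such separation was seen in 1.16% with the methionine-rich dams higher and in 1.05% with the control dams higher. *MAT1A* and *BHMT* did not pass the filter and are not among these loci. For each of them, dams of both treatments were tied at 0.

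**Figure D1:**
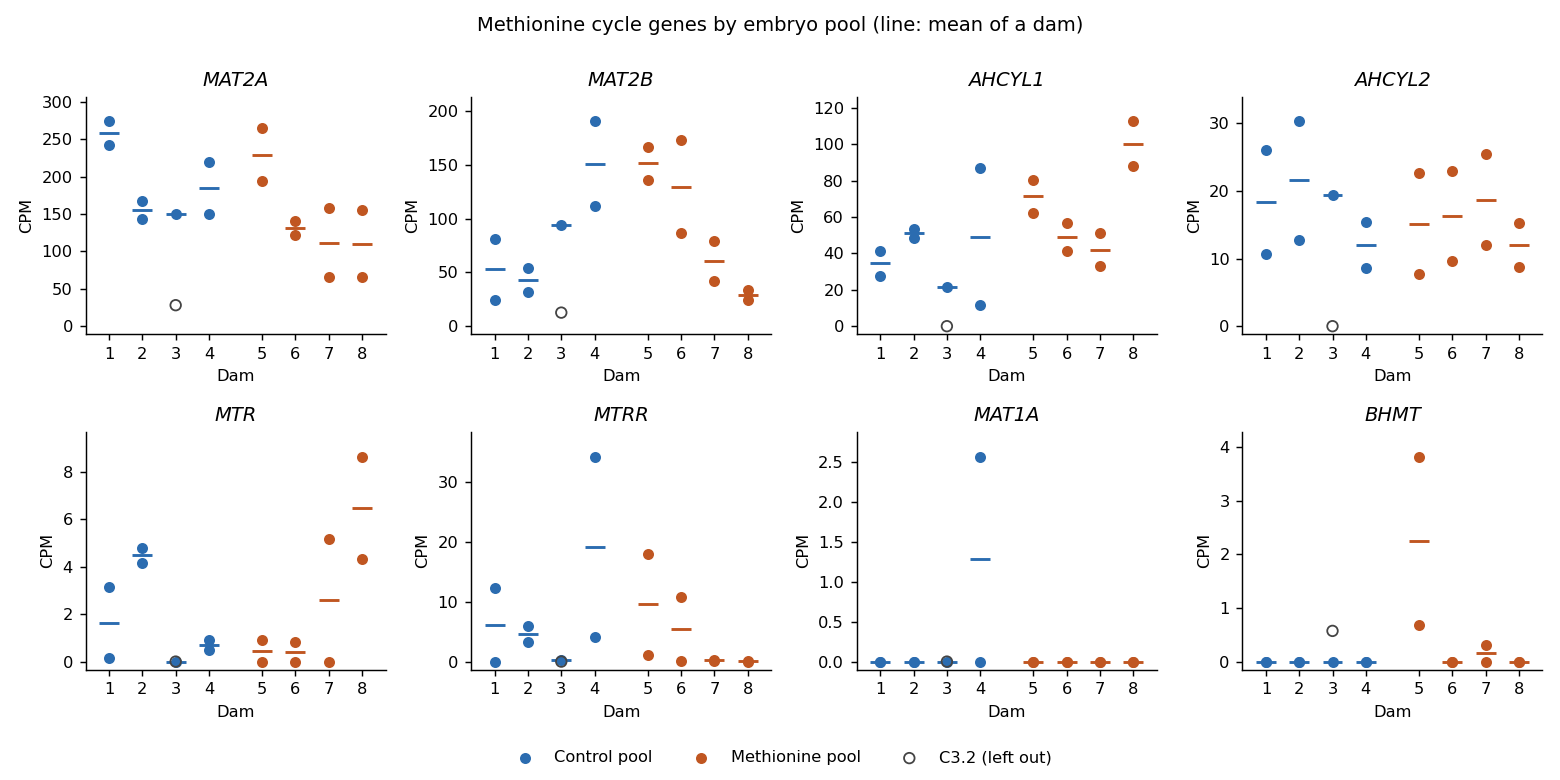
CPM (vertical axis, linear, a scale of its own for each gene) of the 8 methionine cycle genes with a locus, in each pool (points) of dams 1 to 4 (control, blue) and 5 to 8 (methionine-rich, orange), with a line at the mean of a dam and an open circle for pool C3.2, which was left out. The dams of the treatments overlap in every panel, and *MAT1A* has counts in 1 and *BHMT* in 3 of the 15 pools.

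The first step of the cycle is carried out by methionine adenosyltransferase, which joins methionine to ATP to give S-adenosylmethionine. *MAT2A* (XLOC_002489) encodes the catalytic subunit used outside the adult liver. Control pools held 242 and 274 CPM in dam 1, 167 and 143 in dam 2, 150.5 in the single pool of dam 3, and 219 and 149.6 in dam 4. Methionine-rich pools held 265 and 195 CPM in dam 5, 121.5 and 140.4 in dam 6, 65.6 and 158 in dam 7, and 155 and 65.2 in dam 8. The lowest values were thus in M7.1 and M8.2, below every control pool as were both pools of dam 6, while M5.1 was above every control pool but C1.2.

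Averaged per dam, *MAT2A* was at 187 ± 49.7 CPM (SD, n = 4 dams) in the control treatment and at 145.5 ± 56.9 CPM (SD, n = 4) in the methionine-rich treatment. The difference of -41.4 CPM (interval -148 to 79.1) was within the spread between dams, with an exact permutation p of 0.3714. On the log2 scale of CPM + 0.5 the difference was -0.46, with an interval that runs from 0.392-fold to 1.51-fold. The exact test of edgeR gave a log2 fold change of -0.49 with an FDR of 0.816, and DESeq2 gave -0.49 ± 0.28 (SE) with an FDR of 0.738. Without dam 5, the highest of the methionine-rich dams, each of the 4 control dams exceeded each of the other 3, with a difference of -69.4 CPM and an exact permutation p of 0.0857. Dam 5 is singled out here by its value, and the share of all loci separated without it was not computed. Without dam 1 the difference was -17.7 CPM, with C3.2 included it was -26.1 CPM, and with the number of blastocysts as a covariate the log2 fold change was -0.80 (quasi-likelihood test of edgeR, FDR 0.43).

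*MAT2B* (XLOC_019231) encodes the regulatory subunit that binds the MAT2A protein. Its levels in the control pools were 81.3 and 24.4 CPM in dam 1, 53.9 and 31.7 in dam 2, 94.2 in dam 3, and 111 and 190.4 in dam 4. In the methionine-rich pools they were 167 and 136 CPM in dam 5, 172.5 and 86.8 in dam 6, 41.5 and 79.2 in dam 7, and 33.96 and 24.6 in dam 8. High and low dams occurred in both treatments, and dams 8 and 5, the lowest and the highest of the 8 at 29.3 and 151 CPM, both belonged to the methionine-rich treatment.

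The dam means of *MAT2B* were 85.2 ± 49.1 CPM (SD, n = 4 dams) in the control and 92.6 ± 57.4 CPM (SD, n = 4) in the methionine-rich treatment. The difference of 7.47 CPM (interval -122 to 109) had an exact permutation p of 0.8571, and the interval ran from 0.201-fold to 3.61-fold. The log2 fold change of edgeR's exact test was 0.06 with an FDR of 1.0, and that of DESeq2 was 0.07 ± 0.46 (SE). The sign of the difference turned when dam 1, 2, 5 or 6 was left out, with values from -12.1 CPM without dam 5 to 29.4 CPM without dam 4.

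The ratio of *MAT2A* to *MAT2B* counts within a pool is free of the pool's total, and is read here only from pool to pool. It had a median of 2.97 in the control pools (0.786 to 11.2) and of 1.602 in the methionine-rich pools (0.705 to 4.56). By dam, the ratio of the means was 4.88, 3.62, 1.598 and 1.22 in control dams 1 to 4 and 1.52, 1.01, 1.85 and 3.76 in methionine-rich dams 5 to 8. These ranges overlapped, and the ratio was not tested. Over the 15 pools the log2 CPM of both genes had a Pearson r of 0.21, given as a description over pools of which 7 pairs share a dam.

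*MAT1A* (XLOC_014110) encodes the catalytic subunit of the adult liver. It had 20 counts in C4.2, equal to 2.57 CPM (95% Clopper-Pearson interval 1.57 to 3.97), and 0 in the other 14 pools. It did not pass the filter and was not tested. A pool with 0 counts does not exclude a level under about the 3-count floor. Of 3 listed liver markers, which served to look for liver RNA in the pools, 1 had 10 or more counts in a pool, and their sum was at most 4.62 CPM.

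S-adenosylhomocysteine is hydrolysed by the enzyme that *AHCY* encodes, for which no locus was analysed here. *AHCYL1* and *AHCYL2* encode proteins related to it in sequence, the former also known as IRBIT, a partner of the inositol trisphosphate receptor. For *AHCYL1* (XLOC_015693), the control pools held 41.6 and 27.4 CPM in dam 1, 48.7 and 53.2 in dam 2, 21.6 in dam 3, and 87.0 and 11.4 in dam 4. The methionine-rich pools held 62.3 and 80.4 CPM in dam 5, 56.8 and 41.2 in dam 6, 32.96 and 51.2 in dam 7, and 88.0 and 113 in dam 8. Both pools of dam 8 were above every control pool, and no methionine-rich pool was below C1.2, C3.1 or C4.2.

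The dam means of *AHCYL1* were 39.1 ± 13.8 CPM (SD, n = 4 dams) in the control and 65.7 ± 26.2 CPM (SD, n = 4) in the methionine-rich treatment. The difference of 26.6 CPM (interval -8.89 to 78.7) had an exact permutation p of 0.1714, and on the log2 scale it was 0.88, with an exact permutation p of 0.0857 and an interval from 0.809-fold to 4.54-fold. Dams 6 and 7, at 49.0 and 42.1 CPM, were both below control dams 2 and 4, at 51.0 and 49.2 CPM. The exact test of edgeR gave a log2 fold change of 0.65 with an FDR of 0.825, DESeq2 gave 0.66 ± 0.41 (SE) with an FDR of 0.787, and voom gave 0.84 ± 0.42 (SE) with an unadjusted p of 0.0575 and an FDR of 0.993. Without dam 8 the log2 fold change was 0.30 by edgeR's exact test and the difference of dam means was 15.1 CPM. With the number of blastocysts as a covariate the log2 fold change was 1.03 (quasi-likelihood test of edgeR, FDR 0.438).

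For *AHCYL2* (XLOC_016273), the control pools held 26.1 and 10.65 CPM in dam 1, 12.8 and 30.3 in dam 2, 19.4 in dam 3, and 8.57 and 15.4 in dam 4. The methionine-rich pools held 22.6 and 7.65 CPM in dam 5, 23.0 and 9.59 in dam 6, 25.4 and 12 in dam 7, and 15.3 and 8.78 in dam 8. In each of the 7 dams with a pair of pools, 1 pool was at least 1.74 times the other.

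The dam means of *AHCYL2* nevertheless lay close together, at 17.8 ± 4.11 CPM (SD, n = 4 dams) in the control and 15.6 ± 2.77 CPM (SD, n = 4) in the methionine-rich treatment. The difference of -2.29 CPM (interval -9.52 to 6.72) had an exact permutation p of 0.4571, and the interval ran from 0.598-fold to 1.5-fold. On the fold scale this interval was the narrowest of the 6 tested genes. With 4 dams per treatment, the permutation test did not reject true differences within it. The log2 fold change was -0.15 by edgeR's exact test, with an FDR of 1.0, and -0.14 ± 0.38 (SE) by DESeq2. With C3.2 included it was 0.03, and without C2.1 the difference of dam means was -4.48 CPM.

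Within a pool, the ratio of *AHCYL1* to *AHCYL2* counts had a median of 1.76 in the control (0.742 to 10.15) and of 4.28 in the methionine-rich treatment (1.30 to 12.8). By dam the ratios of the means were 1.88, 2.36, 1.11 and 4.10 in the control and 4.72, 3.01, 2.25 and 8.33 in the methionine-rich treatment. Dams 6 and 7 fell below control dam 4, and dam 7 also below control dam 2, so the dams overlapped.

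**Figure D2:**
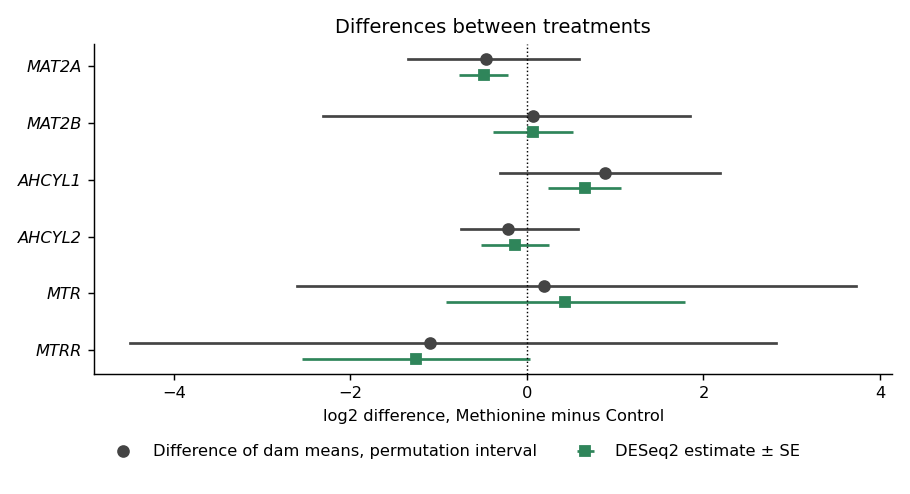
Log2 difference between treatments (horizontal axis, methionine-rich minus control) for the 6 tested genes, as the difference of dam means of log2(CPM + 0.5) with its 97.1% permutation interval (circles) and as the DESeq2 estimate with its standard error (squares). All 6 intervals include 0, and they are widest for *MTR* and *MTRR*.

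Remethylation from folate is carried out by methionine synthase, encoded by *MTR*, which carries a cobalamin cofactor that its reductase, encoded by *MTRR*, returns to the active state. *MTR* (XLOC_013891) had between 0 and 27 counts in the control pools, namely 1 and 21 in dam 1, 27 and 27 in dam 2, 0 in dam 3, and 3 and 7 in dam 4. In the methionine-rich pools it had 0 and 7 counts in dam 5, 0 and 5 in dam 6, 0 and 34 in dam 7, and 31 and 64 in dam 8. Dams 2 and 8 were the only dams with 10 or more counts in each of their pools, and they belong to different treatments.

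The dam means of *MTR* were 1.71 ± 1.97 CPM (SD, n = 4 dams) in the control and 2.49 ± 2.85 CPM (SD, n = 4) in the methionine-rich treatment. The difference of 0.779 CPM (interval -4.07 to 6.48) had an exact permutation p of 0.6286, with an interval from 0.164-fold to 13.3-fold. The exact test of edgeR gave a log2 fold change of 0.42 with an FDR of 1.0, and DESeq2 gave 0.43 ± 1.36 (SE). Without dam 8 the log2 fold change of edgeR was -0.77, and by voom, with all dams, it was -0.39. It was 0.93 without C2.1, 0.70 with the pools of a dam summed and 0.13 with a replicate block for the pool number, against 0.42.

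*MTRR* (XLOC_010301) had 93 and 0 counts in the control pools of dam 1, 18 and 39 in dam 2, 2 in dam 3, and 208 and 32 in dam 4. In the methionine-rich pools it had 8 and 137 counts in dam 5, 1 and 64 in dam 6, 2 and 1 in dam 7, and 0 and 1 in dam 8. Counts were thus far higher in 1 pool than in the other for dams 1, 5 and 6, and at most 2 throughout dams 3, 7 and 8.

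The dam means of *MTRR* were 7.56 ± 8.15 CPM (SD, n = 4 dams) in the control and 3.83 ± 4.59 CPM (SD, n = 4) in the methionine-rich treatment. The difference of -3.73 CPM (interval -19.1 to 9.32) had an exact permutation p of 0.4857, with an interval from 0.0445-fold to 7.09-fold. The log2 fold change was -1.24 by edgeR's exact test, with an FDR of 0.968, and -1.26 ± 1.29 (SE) by DESeq2. C4.1 alone, with 208 counts, held 34.3% of the counts of *MTRR* over the 15 pools. Without dam 4 the difference was 0.155 CPM and the log2 fold change -0.20. The log2 fold change was -1.94 by voom, and by the quasi-likelihood test -2.71 with a replicate block for the pool number and -3.28 with the number of blastocysts as a covariate, where the FDR was 0.792.

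Of the 15 pools, 6 had 10 or more counts of *MTR* and 7 had 10 or more of *MTRR*, but only C2.1 and C2.2 had 10 or more of both. A further 4 pools had 10 or more of *MTR* alone, 5 of *MTRR* alone and 4 of neither. *MTR* reached 10 counts in 3 control and 3 methionine-rich pools, and *MTRR* in 5 control and 2 methionine-rich pools. These counts are given without a test. C2.1 is also the pool with the high leukocyte marker sum given above. Without it, the log2 fold change of edgeR's exact test was 0.93 for *MTR* and -1.37 for *MTRR*, and the differences of dam means were 0.857 and -4.08 CPM. C2.2, from the same dam and without that sum, held 27 counts of *MTR* and 39 of *MTRR*.

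**Figure D3:**
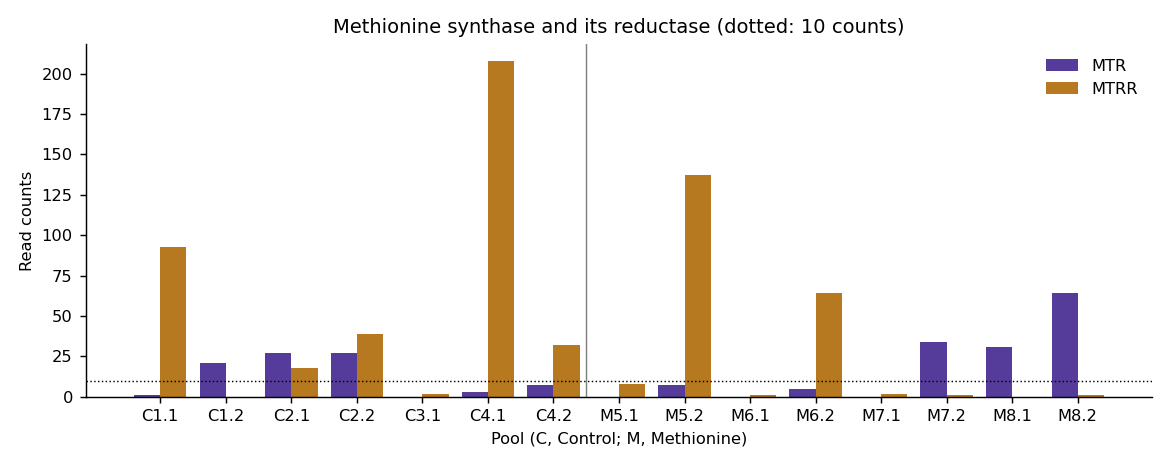
Read counts (vertical axis, linear from 0) of *MTR* (purple) and *MTRR* (brown) in each of the 15 pools, control to the left and methionine-rich to the right of the grey line, with a dotted line at 10 counts. Both genes pass 10 counts only in C2.1 and C2.2, and *MTRR* is highest in C4.1 with 208 counts.

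Remethylation from betaine is carried out by betaine-homocysteine methyltransferases, which are abundant in liver. *BHMT* (XLOC_000932) had 5 counts in M5.1, 29 in M5.2 and 2 in M7.2, and 0 in the other 12 pools. M5.2 thus reached 3.83 CPM (95% Clopper-Pearson interval 2.56 to 5.50) and M5.1 0.689 CPM (0.224 to 1.61), both from dam 5, while all 7 control pools were at 0. *BHMT* did not pass the filter and was not tested, and 3 of the 4 methionine-rich dams were at or under the 3-count floor. In the RefSeq table of the assembly ARS-UCD2.0, *BHMT* and *BHMT2* are neighbours with 0 genes between them. Only uniquely mapped reads were counted by the authors, so reads that matched both paralogs equally would be counted for neither.

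The spread of the 6 tested genes between pools differed among them. Over the 15 pools the coefficient of variation of CPM was 37.4% for *MAT2A*, 44.9% for *AHCYL2*, 51.1% for *AHCYL1* and 63.5% for *MAT2B*, and 118% and 158% for *MTR* and *MTRR*, beside a median of 80.3% over all loci tested. *MAT2A*, *MAT2B*, *AHCYL1* and *AHCYL2* had counts in all 15 pools, as did 65.4% of loci, whereas *MTRR* had counts in 13 pools and *MTR* in 11. The pool with the most *MTR*, M8.2, held 28.2% of its counts over the 15 pools, and the share of the pool with the most counts was between 11% and 15.7% for the 4 genes present in every pool, beside a median of 19.5% over loci.

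Pools of the same dam were compared with pools of other dams by the size of the difference of log2(CPM + 0.5), over 7 pairs within a dam, 42 pairs of different dams of 1 treatment and 56 pairs between treatments. For *MAT2A* the medians were 0.44, 0.68 and 0.56, and for *MAT2B* they were 0.77, 1.22 and 1.06. For *AHCYL1* they were 0.46, 0.87 and 0.87. For *AHCYL2* the pools of a dam differed more, at 1.21, than pools of other dams, at 0.62, or of the other treatment, at 0.66. In *MAT2A*, *MAT2B* and *AHCYL1* pools of a dam were thus nearer to each other by their median than pools of different dams, and in these 3 genes and in *AHCYL2* the median between treatments did not exceed the larger of the medians within a treatment. The largest difference within a dam among these 4 genes was 7.61-fold, for *AHCYL1* in dam 4.

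For the genes with at least 10 counts in every pool, the symbol-bearing loci most like them were found by Pearson's r of log2 CPM over the 15 pools, out of 9243 loci. They were *AKAP10* (r = 0.834) and *GTF2H4* (0.833) for *MAT2A*, and *NUP107* (0.861) and *KIF13A* (0.849) for *MAT2B*. For *AHCYL1* they were *MESDC1* (0.834) and *CNP* (0.828), and for *AHCYL2* they were *HDHD3* (0.781) and *RBPJ* (0.774). Each is the top of a ranking over all these loci, in pools that share dams, and is given as a description without a test. Among the 4 genes themselves, r lay between -0.313, for *AHCYL1* with *AHCYL2*, and 0.21, for *MAT2A* with *MAT2B*.

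Around the cycle, a list of 34 further genes covered methionine salvage, transport and control of S-adenosylmethionine, small-molecule methyltransferases, clearance of adenosine, homocysteine removal, methyl donor supply, cobalamin handling and repair of methionine sulfoxide. Of these, 33 had a locus and 23 loci were tested. The exact test of edgeR called 1, *MSRB3*, beside the 0.77% of all loci called as higher in the control. The quasi-likelihood test, DESeq2 and voom called 0, but DESeq2 gave no FDR for *MSRB3*. An unadjusted p under 0.05 was reached by 3 of the 23 with the exact test, beside 898 of the 10519 loci, and by 4 with the quasi-likelihood test, beside 909. Besides *MSRB3*, the 3 were *ENOPH1* of the salvage pathway and *SLC25A26*, the mitochondrial carrier of S-adenosylmethionine, which are named here after their values were seen. *ENOPH1* was at 4.2 ± 1.85 CPM (SD, n = 4 dams) in the control and 14.1 ± 9.56 CPM (SD, n = 4) in the methionine-rich treatment, with a log2 fold change of 1.73, an unadjusted p of 0.0253 and an FDR of 0.42 by edgeR's exact test. *SLC25A26* was at 16.0 ± 9.84 CPM (SD, n = 4) and 7.18 ± 3.92 CPM (SD, n = 4), with a log2 fold change of -1.35, an unadjusted p of 0.0402 and an FDR of 0.525 by the same test. That test takes pools of a dam as independent. Between dams, the exact permutation p was 0.0857 for *ENOPH1* and 0.1714 for *SLC25A26*, and the dams overlapped in both. With the quasi-likelihood test *CD320* was the fourth. In 14 loci the log2 fold change was above 0 and in 9 below, with a median of 0.046. The control dams exceeded the methionine-rich dams in 0 of the 23, and the methionine-rich dams exceeded the control dams in 3, *ADI1*, *ABCD4* and *CD320*, beside the 1.16% of all loci given above. The list was chosen with earlier results of these data known, so the 3 are given as a description and not as an enrichment.

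*ADI1* encodes a dioxygenase of the salvage pathway, which recovers methionine from the methylthioadenosine left by polyamine synthesis. Its dam means were 6.09, 5.06, 6.33 and 5.22 CPM in the control and 7.56, 10.85, 8.06 and 7.503 CPM in the methionine-rich treatment. Single pools overlapped, and the mean of dam 7 averaged 1.53 CPM in M7.1, below every control pool, with 14.6 CPM in M7.2. The pools of dam 6 were at 15.8 and 5.89 CPM. The exact permutation p was 0.0286, the smallest these dams allow, and edgeR's exact test gave a log2 fold change of 0.54 with an FDR of 0.997. The separation was lost with TMM-normalized CPM, with DESeq2 size factors, on the log2 scale and with C3.2 included, where the log2 fold change was -0.17. It was 0.33 with the number of blastocysts as a covariate. All 5 salvage genes were tested, with a median log2 fold change of 0.51 and 0 called. *MTAP*, which opens the pathway by cleaving methylthioadenosine, had a mean of 176 CPM and a log2 fold change of 0.05.

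*ABCD4* and *CD320* handle cobalamin, the vitamin from which the cofactor of methionine synthase is made. CD320 is the cell surface receptor for the transcobalamin complex, and ABCD4 works with LMBRD1 to release cobalamin from the lysosome. *ABCD4* was at 2.78, 10.3, 4.31 and 9.01 CPM in the control dams and at 14.5, 20.8, 16.9 and 11.9 CPM in the methionine-rich dams, with a log2 fold change of 1.25 and an FDR of 0.73 by edgeR's exact test. *CD320* was at 10.6, 8.61, 10.9 and 9.23 CPM in the control dams and at 12.97, 18.8, 19.0 and 30.6 CPM in the methionine-rich dams, with a log2 fold change of 1.05 and an FDR of 0.591 by the same test. Each had an exact permutation p of 0.0286. Single pools of the treatments overlapped in both genes. *ABCD4* was at 1.405 CPM in M7.1 and 2.43 in M8.2, below every control pool but C1.2, and at 32.4 in M7.2 and 21.4 in M8.1. For *ABCD4* the median size of the log2 difference was 1.89 within a dam, 1.28 between dams of 1 treatment and 1.78 between treatments.

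The dams of *ABCD4* overlapped on the log2 scale, with C3.2 included and without C2.1, and those of *CD320* with TMM-normalized CPM and with DESeq2 size factors. The log2 fold change of *ABCD4* was 0.40 with C3.2 included and 0.71 with the number of blastocysts as a covariate. Of the 6 cobalamin genes, 5 were tested and 0 called, with a median log2 fold change of 0.30. *LMBRD1* had a mean of 58.1 CPM and a log2 fold change of 0.23.

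*MSRB3* encodes a reductase of oxidised methionine residues in proteins. Of its counts in the 15 pools, 233 (92.5%) lay in C4.1, at 38.4 CPM, and no other pool had more than 6. The log2 fold change of -6.37 had an FDR of 0.0832 by edgeR's exact test and of 0.302 by the quasi-likelihood test. DESeq2 gave -2.59 ± 2.64 (SE) and no FDR. Without dam 4 it did not pass the filter, and without dam 5, 6, 7 or 8 it was no longer called. C3.2, the pool left out, held 1775 counts, or 1017 CPM. C4.1 was also the pool with the most *MTRR*.

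In the remaining groups of the list, 1 gene each is given as an example of its own level, and none of these was called. *AMD1*, which makes decarboxylated S-adenosylmethionine for polyamine synthesis, had a mean of 172 CPM and a log2 fold change of 0.23. *GNMT*, which transfers the methyl group to glycine, was at 36.7 CPM with -0.05, and *ALDH7A1*, which oxidises betaine aldehyde to betaine among other aldehydes, at 593 CPM with 0.07. *CBS*, the first enzyme of transsulfuration, was at 17.2 CPM with 0.65. *ADK*, which removes adenosine by phosphorylation, was at 22.8 CPM with -0.97 and an unadjusted p of 0.0757 by edgeR's exact test.

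**Figure D4:**
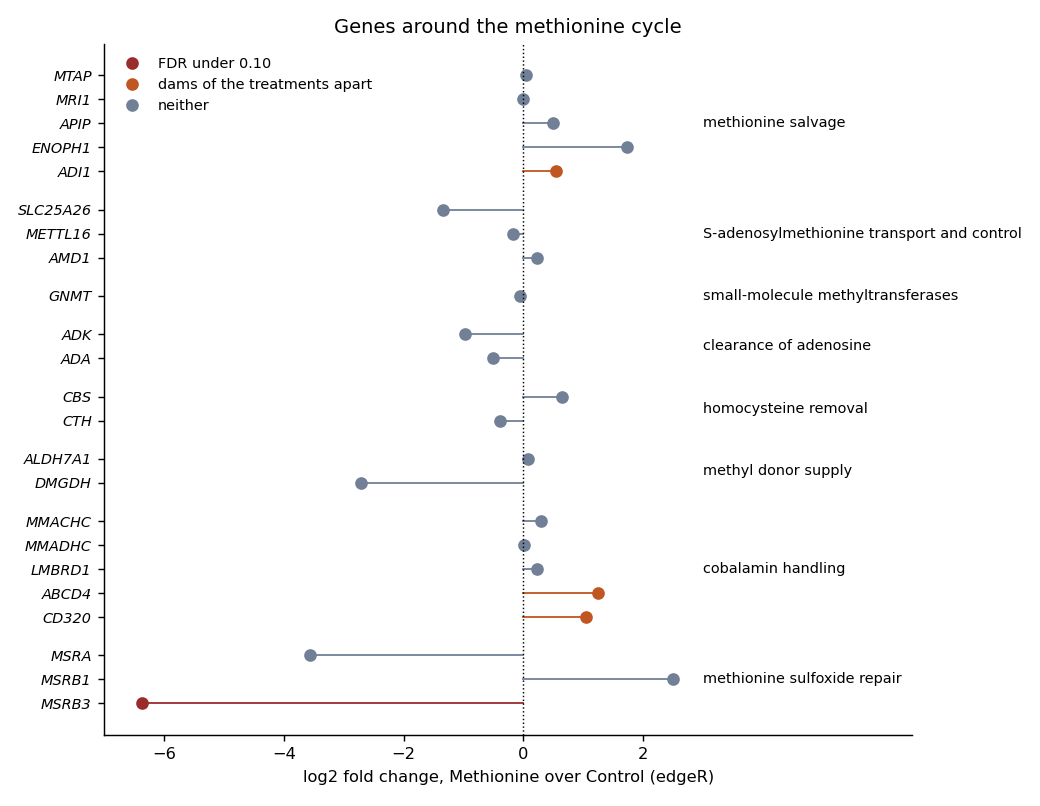
Log2 fold change (horizontal axis, methionine-rich over control, edgeR) of the 23 tested genes around the methionine cycle, grouped by role, coloured red for an FDR under 0.10, orange where every dam of 1 treatment exceeded every dam of the other, and grey otherwise. *MSRB3* at -6.37 is the red point, and *ADI1*, *ABCD4* and *CD320* are the orange points, all to the right of 0.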

How the data were processed

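RNA of each pool went through repeated rounds of linear amplification and was sequenced as single-end reads. The authors aligned reads to bosTau7 with TopHat2 2.0.4, assembled transcripts with Cufflinks 2.0.2 and cuffmerge, and obtained a read count for every gene with htseq-count. The deposited values are those raw counts, in 22552 lines per pool; 182 loci listed under several names were entered once. The strand setting of the counting was not given in the sources used here, so reads of overlapping antisense genes cannot be told apart. No pair of pools held the same library (smallest chi-square per degree of freedom, 70.6). That the pools of different dams are independent rests on the labels.

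Loci with a summed CPM of at least 15 over 15 pools were tested in R 4.3.3 with edgeR 4.0.16 (TMM, common and tagwise dispersions, exact test, Benjamini-Hochberg adjustment), after the study's methods. The common dispersion was 1.142. Dam means were compared by exact permutation. Alternatives were edgeR's quasi-likelihood test, DESeq2 1.42.0, voom of limma 3.58.1 with a random cow effect (estimated correlation 0.0351), normalization, the filter, pools left out, both pools of each cow added together, a replicate block for the pool number, a covariate for the blastocysts in a pool, and each cow left out. The fits were first tested on simulated counts with a far lower dispersion than these data and no dam effect. That checked the code and does not measure power or error here. Intervals for single pools are exact binomial (Clopper-Pearson) and, like the floors of 3 counts, cover counting error only.

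The genes named are every gene of the set, the pathway genes called or separated between dams, the gene with the highest mean CPM in each pathway group, and the 2 loci most correlated with each gene that had 10 counts in every pool. *ENOPH1* and *SLC25A26* lie outside this rule and were named for an unadjusted p under 0.05 by edgeR's exact test. The genes and lists were chosen with earlier results of these data known. A pathway gene was matched through the older symbol *SEPX1* (*MSRB1*), and *NNMT* was not analysed here. Coordinates and sequences were not used here, since no genome of the files' build was at hand.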

Additional observations from a re-analysis of the deposited data

Results flagged for a closer look

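Of 14 groups of pools tested for a single value far from the others, with Dixon's ratio, 3 held one. Chance gives about 1 in 20 for values that vary normally, which does not hold for *MAT1A* and *BHMT*, where nearly all pools were at 0 and any pool with counts stands apart. *MAT1A* was at 2.57 CPM in C4.2, from 20 counts, with the other control pools at 0. *MTRR* was at 34.3 CPM in C4.1, from 208 counts, with the next control pool at 12.3 CPM and the gap at 0.642 of the range. *BHMT* was at 3.83 CPM in M5.2, from 29 counts, with the next methionine-rich pool at 0.689 CPM and the gap at 0.82 of the range. In C3.2, the pool that entered no comparison, *BHMT* had 1 count, or 0.573 CPM, while the 7 control pools analysed had 0, and the 3-count floor of C3.2 was 1.72 CPM.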

How the results depend on the processing

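None of the 6 tested genes of the cycle was called under any of the 20 alternatives in which it passed the filter. With the number of blastocysts as a covariate in the quasi-likelihood test of edgeR, *MAT2A* had a log2 fold change of -0.80 (unadjusted p 0.0312, FDR 0.43) and *AHCYL1* of 1.03 (unadjusted p 0.0323, FDR 0.438). Over the alternatives, *MAT2A* lay between -0.80 and -0.23 with an FDR of 0.43 to 1.0 and *AHCYL1* between 0.30 and 1.03 with an FDR of 0.438 to 1.0, and *MTRR* between -3.28 and -0.20. The other 3 changed sign somewhere, and the cause was not tested. *MAT2B* was at -0.27 with the blastocyst covariate and between -0.19 and 0.59 with 1 dam left out, or between -12.1 and 29.4 CPM. *MTR* was at -0.39 by voom and between -0.77 and 1.41 with 1 dam left out, or between -0.552 and 1.71 CPM. *AHCYL2* was at 0.031, or 0.136 CPM, with all 16 pools. The dam difference of *MTRR* lay between -6.16 and 0.155 CPM with 1 dam left out, and *ADI1* was at -0.17 with all 16 pools. Separation of the dams held for 0 to 1 genes of the cycle with 1 dam left out. The 1 gene was *MAT2A* without dam 5, its highest methionine-rich dam (exact permutation p 0.0857). The share of all loci separated with 1 dam left out was not computed, so this count has no background beside it.

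The 110 loci called by the exact test became 0 with the quasi-likelihood test, alone, with a replicate block for the pool number or with the blastocyst covariate, and 0 with voom or at least 10 counts in every pool. They became 67 with DESeq2, 55 without the filter, 341 with all 16 pools, 64 without C2.1, and 62 to 153 with 1 dam left out (62 without dam 8, 66 without dam 7). The 1 pathway gene called became 0 with the quasi-likelihood test, alone, with the replicate block or with the covariate, with DESeq2, voom, the pools of a cow summed, no filter or at least 10 counts in every pool, and 0 to 1 with 1 dam left out. By the labels the pool number names the pools of a dam, and no pairing across treatments is stated. Whether it follows the sequencing lane is not known, since the lane of a pool was not given. *MTR*, *MTRR*, *MAT1A* and *BHMT* had under 10 counts in at least 8 of the 15 pools, which limits what can be said of them.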
